A study of Homo sapiens with 6 samples.

Results

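The BCL2 family genes followed here were 10 regulators of mitochondrial apoptosis, chosen by gene symbol from the 29982 symbols of the expression table and followed over the vehicle and the 3 SpiD7 time points. They comprised 5 BH3-only members (BBC3, PMAIP1, BCL2L11, BIK and BID), 2 effectors (BAX and BAK1) and 3 anti-apoptotic members (MCL1, BCL2L1 and BCL2). Each had 1 row in the table, and 9 of the 10 had a mean FPKM of at least 1 over all libraries, BCL2 being the exception. RNA-Seq was carried out on OVCAR5, an established ovarian cancer cell line, after DMSO (2 libraries) or after 10 μM SpiD7, a spirocyclic dimer, for 2 h (2 libraries), 6 h (1 library) or 12 h (1 library). The sample labels give no incubation time for the vehicle, all 3 times are set against the same DMSO libraries here, and nothing states that the replicates were separate cultures, so that p-values measure only the spread between these libraries. Values are FPKM, fragments counted per length of transcript and per mapped reads, so that levels of different genes can be compared.

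Replicate 2 of DMSO and of 2 h was not listed on its own. The columns named for it held values that behave as means of both libraries of the group, and replicate 2 was recovered from them, which makes every value given for it below a derived one. The DMSO libraries were more than 2-fold apart in 13.5% of the 13287 genes whose mean FPKM reached 1, and in 3 of the 9 members at that level (BBC3, BIK and MCL1). Examples picked after their values were seen were ATF3, at 1.06 in replicate 1 and 99.4 in replicate 2, and BTG2, at 1.71 and 116. For this reason each 6 h and 12 h value is given against both DMSO libraries. All 5 epithelial markers were well expressed (KRT8 between 1459 and 2194, EPCAM between 77.4 and 86.5). Of the ovarian and tubal markers, PAX8 lay between 1.64 and 2.12, and WT1 and MUC16 were below 1 in every library. Of 7 markers of other cell types, CD3E was listed at 0 throughout, and their summed FPKM was 5.77 and 18.4 in DMSO, 6.95 and 13.2 after 2 h, 7.50 after 6 h and 12.3 after 12 h. PECAM1, an endothelial marker, was higher in replicate 2 of both groups (0.74 and 10.7 in DMSO, 0.96 and 7.74 at 2 h). The same held for BBC3, BIK and MCL1. Of the other markers, COL1A1, COL3A1 and VWF were also higher there, but VWF, another endothelial marker, was at most 0.086 in any library. CD14 was higher in replicate 2 of DMSO and lower in replicate 2 of 2 h. PTPRC, at most 0.032, showed the reverse. Any part of other cell types in the values of BBC3, BIK and MCL1 was not tested.

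Proteins of this family decide whether the outer mitochondrial membrane is opened during apoptosis. BH3-only proteins are the stress sensors, which bind and block the anti-apoptotic guardians or activate the effectors directly, and active BAX and BAK form the pores through which cytochrome c leaves to start the caspase cascade. In the unfolded protein response, the transcription factors ATF4 and CHOP (gene DDIT3) are known to act on BIM, PUMA and NOXA, while ovarian cancer cells often rely on BCL-xL and MCL1 for survival.

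The sequences before the start sites of 3 genes are shown because these BH3-only members had the highest values at 12 h relative to DMSO. They are RefSeq sequences of GRCh38.p14, written 5′ to 3′ on the strand of the gene, and cover those bases of the 250 before a RefSeq start site that lie in no exon of the gene in GENCODE release 29. Capitals mark the match to a searched motif.
PMAIP1, chr18:59899746-59899947, plus strand: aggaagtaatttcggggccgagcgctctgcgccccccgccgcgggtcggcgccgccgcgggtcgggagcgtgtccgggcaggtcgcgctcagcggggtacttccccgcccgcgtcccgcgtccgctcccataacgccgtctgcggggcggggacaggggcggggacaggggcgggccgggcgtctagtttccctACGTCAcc
BCL2L11, chr2:111120664-111120913, plus strand: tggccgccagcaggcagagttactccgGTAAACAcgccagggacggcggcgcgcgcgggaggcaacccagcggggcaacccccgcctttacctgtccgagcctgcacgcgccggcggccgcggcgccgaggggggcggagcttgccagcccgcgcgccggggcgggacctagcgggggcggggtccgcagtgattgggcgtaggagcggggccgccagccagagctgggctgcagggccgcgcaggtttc
BBC3, chr19:47232767-47232917, minus strand: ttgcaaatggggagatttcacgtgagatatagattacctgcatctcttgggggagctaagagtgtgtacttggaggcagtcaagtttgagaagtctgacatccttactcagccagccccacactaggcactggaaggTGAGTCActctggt

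PMAIP1 carried the core of the cAMP response element, TGACGT on the other strand, at bases -56 to -51 from the start site. BCL2L11 carried the FOXO motif GTAAACA at -223 to -217, and BBC3 the AP-1 motif TGAGTCA at -113 to -107. The BCL2L11 window lies inside the GENCODE span of the gene, which begins at 111119378. The BBC3 match lies inside the locus listed with its FPKM (47220821 to 47232853). Both are thus before a RefSeq start site, but the first is not before the GENCODE gene and the second not before the listed locus. The BBC3 match does lie before the GENCODE span of the gene, which ends at 47232766. BAK1 carried a heat shock element pattern, GAANNTTC, at -226 to -219, and the CHOP and ATF4 composite pattern TGATGNAA was in none of the windows. These 5 motifs were searched on both strands in the 250 bases before the start site of the 8 members with a RefSeq window (13 windows, with none for BIK and MCL1). Among all 35116 windows of this length, 7.10% held the first, 2.98% the FOXO motif, 4.20% the AP-1 motif, 5.78% the heat shock pattern and 3.14% the composite pattern. A match is a description of the letters, and binding was not measured.

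The family spanned a wide range of levels. MCL1 had the highest mean FPKM over all libraries (118), followed by BAX (93.1) and BCL2L1 (89.5), and the ranges of these 3 genes overlapped. BID (32.3) and PMAIP1 (32.0) came next, then BAK1 (18.5), BCL2L11 (13.2) and BIK (12.6), with overlapping ranges at each step. BBC3 (4.47) and BCL2 (0.65) were lowest. The lowest value of MCL1, BAX or BCL2L1 in any library was 57.7, and the highest of any other member was 42.0, so that 2 guardians and 1 effector stood above every BH3-only gene in each library. Relative to itself, BBC3 varied most (8.01-fold between its lowest and highest library) and BAX least (1.33-fold).

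**Figure D1:**
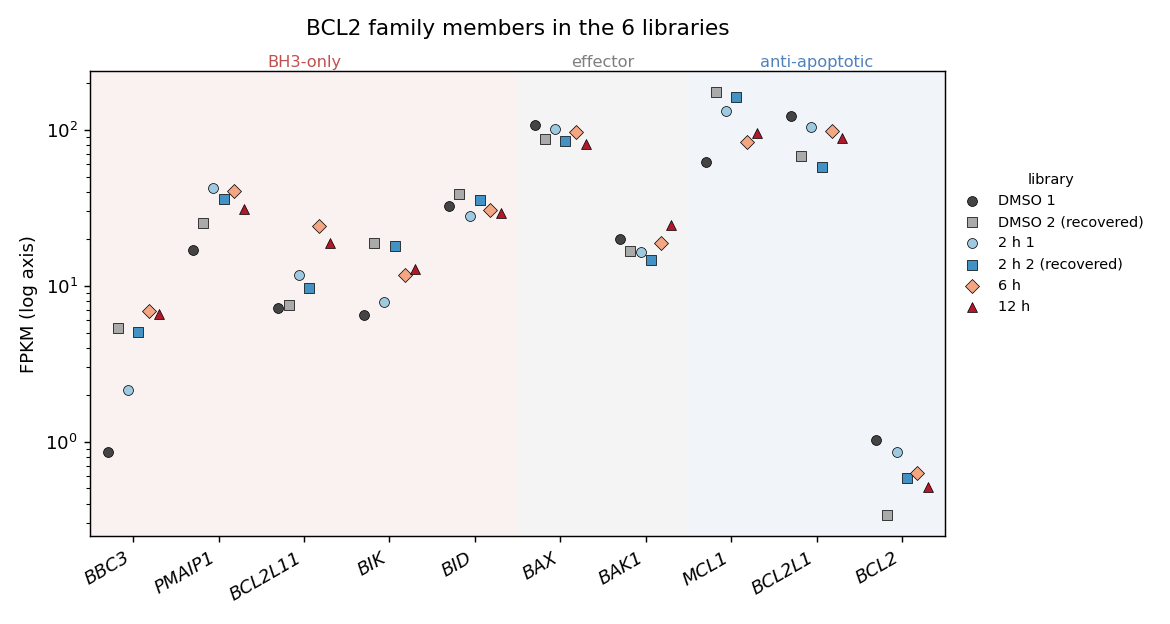
FPKM of the 10 BCL2 family members (log axis), 1 point per library, with circles and squares for replicates 1 and 2 of DMSO and 2 h (replicate 2 recovered), a diamond for 6 h and a triangle for 12 h. All 4 SpiD7 points lie above both DMSO points for PMAIP1 and BCL2L11, while the DMSO points of BBC3, BIK and MCL1 are more than 2-fold apart.

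Among the BH3-only members, BCL2L11 and PMAIP1 were higher in every SpiD7 library than in either DMSO library, BBC3 was higher only at 6 h and 12 h, and BIK and BID were not. All 4 SpiD7 libraries exceeded both DMSO libraries in 2 of the 9 members at the level tested, against 8.93% of all genes, and lay below both in 0, against 5.04%. At 2 h the only test with replicates on both sides was limma on log2(FPKM + 0.1), 2 against 2 libraries. It called 0 of the 9 members at an adjusted p under 0.05 and more than 2-fold (3 of 13287 genes, 0.0226%). With an unadjusted p under 0.05 there was 1 member, PMAIP1, against 2.84% of all genes.

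BCL2L11 encodes BIM, which can both bind every anti-apoptotic member and activate BAX directly. Its FPKM was 7.20 and 7.56 in DMSO replicates 1 and 2, 11.6 and 9.68 after 2 h, 24.2 after 6 h and 18.8 after 12 h. The DMSO libraries differed 1.05-fold, the least of any member, and the 4 SpiD7 libraries all lay above them, with the highest at 6 h. At 2 h the difference from DMSO was 0.52 on the log2 scale (limma, standard error 0.18, unadjusted p = 0.0560, adjusted p = 1.0). Relative to the mean log2 of both DMSO libraries it was 1.70 at 6 h and 1.34 at 12 h. These values hardly depended on the DMSO library, being 1.74 and 1.67 at 6 h and 1.37 and 1.31 at 12 h against replicates 1 and 2. On the linear scale, BCL2L11 stood at 3.28 times the mean DMSO FPKM at 6 h and 2.55 times at 12 h. The 6 h and 12 h libraries have no replicate. With their spread assumed equal to that of the replicated groups in a limma model of all 6 libraries, the unadjusted p was 0.00279 at 6 h and 0.00608 at 12 h, and the adjusted p 0.346 and 0.406. BCL2L11 was thus not called at any time. It ranked 317 of 13287 genes from the top at 6 h and 510 at 12 h. The gene lies on chromosome 2 of GRCh38, 111119378 to 111168447, and its exons overlap those of MIR4435-2HG on the opposite strand, from which reads of a library that does not keep strand cannot be told apart.

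PMAIP1 encodes NOXA, a BH3-only protein that binds MCL1 in particular. It had an FPKM of 17.0 and 25.1 in DMSO, 42.0 and 36.1 after 2 h, 40.7 after 6 h and 31.0 after 12 h. The SpiD7 libraries did not overlap with DMSO, and unlike BCL2L11 the values at 2 h were as high as at 6 h. The difference at 2 h was 0.91 (log2, limma, standard error 0.28, unadjusted p = 0.0364, adjusted p = 1.0), at 1.30 between the libraries numbered 1 and 0.52 between those numbered 2. At 6 h it was 0.98 and at 12 h 0.59 against both DMSO libraries. Against replicate 2 alone it was 0.69 and 0.30, so that the 12 h value lay close to the higher DMSO library. PMAIP1 lies on chromosome 18, 59899948 to 59904306, and its exons overlap no other annotated gene.

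BBC3 encodes PUMA, which blocks all anti-apoptotic members. Its FPKM was 0.86 and 5.38 in DMSO, 2.16 and 5.02 after 2 h, 6.86 after 6 h and 6.57 after 12 h. The DMSO libraries thus differed 6.29-fold, and both replicates numbered 2 were higher than those numbered 1. At 2 h the difference was 0.57 (log2, limma, standard error 1.07, unadjusted p = 0.626, adjusted p = 1.0), with 1.24 in the first pair and -0.10 in the second. The 6 h and 12 h libraries lay above both DMSO libraries, but by 2.86 and 2.80 over replicate 1 and by 0.34 and 0.28 over replicate 2. The value against the mean of both, 1.60 at 6 h and 1.54 at 12 h, rested mostly on DMSO replicate 1. BBC3 lies on chromosome 19, 47220822 to 47232766, and the microRNA genes MIR3190 and MIR3191 overlap its exons. The genes whose log2 levels followed BBC3 most closely over the 6 libraries were ETV3 (Pearson r = 0.992), SWT1 (0.987) and SELK (0.986), and 58 genes had an r above 0.95. ETV3 shared the difference between replicates, at 4.30 and 15.9 in DMSO, 7.79 and 12.4 after 2 h, 16.0 after 6 h and 15.7 after 12 h.

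BIK, a BH3-only protein of the endoplasmic reticulum, stood at 6.48 and 18.8 in DMSO, 7.89 and 18.0 after 2 h, 11.6 after 6 h and 12.8 after 12 h. All 4 SpiD7 libraries lay between the DMSO libraries, which were 2.90-fold apart. BID, which is cleaved by caspase-8 and links death receptors to mitochondria, was at 32.3 and 38.9 in DMSO, 27.8 and 35.3 after 2 h, 30.4 after 6 h and 29.2 after 12 h. In 3 of the 4 SpiD7 libraries it was below both DMSO libraries. Against the mean of both, the log2 difference was -0.18, -0.22 and -0.28 after 2, 6 and 12 h. Against replicate 1, the lower DMSO library, it was -0.09 at 6 h and -0.15 at 12 h. Limma at 2 h gave unadjusted and adjusted p of 0.472 and 1.0. BIK lies on chromosome 22, 43110748 to 43129712, and BID on the same chromosome, 17734138 to 17774770.

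More than 2-fold above the mean of both DMSO libraries were 2 of the 9 members after 6 h and 2 after 12 h, BBC3 and BCL2L11 each time. Of all genes, 5.66% and 6.48% were so. More than 2-fold lower were 0 members at either time, against 3.1% and 3.76% of all genes. Only BCL2L11 kept a more than 2-fold difference against each DMSO library alone at both times, and the share of all genes that did so was not counted. The limma model with a spread pooled over the replicated groups called 0 members at 6 h and 12 h, and 0.294% and 0.339% of all genes, with 1 of the 9 members (BCL2L11) at an unadjusted p under 0.05 at each time, against 5.55% of all genes at 6 h and 9.19% at 12 h.

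**Figure D2:**
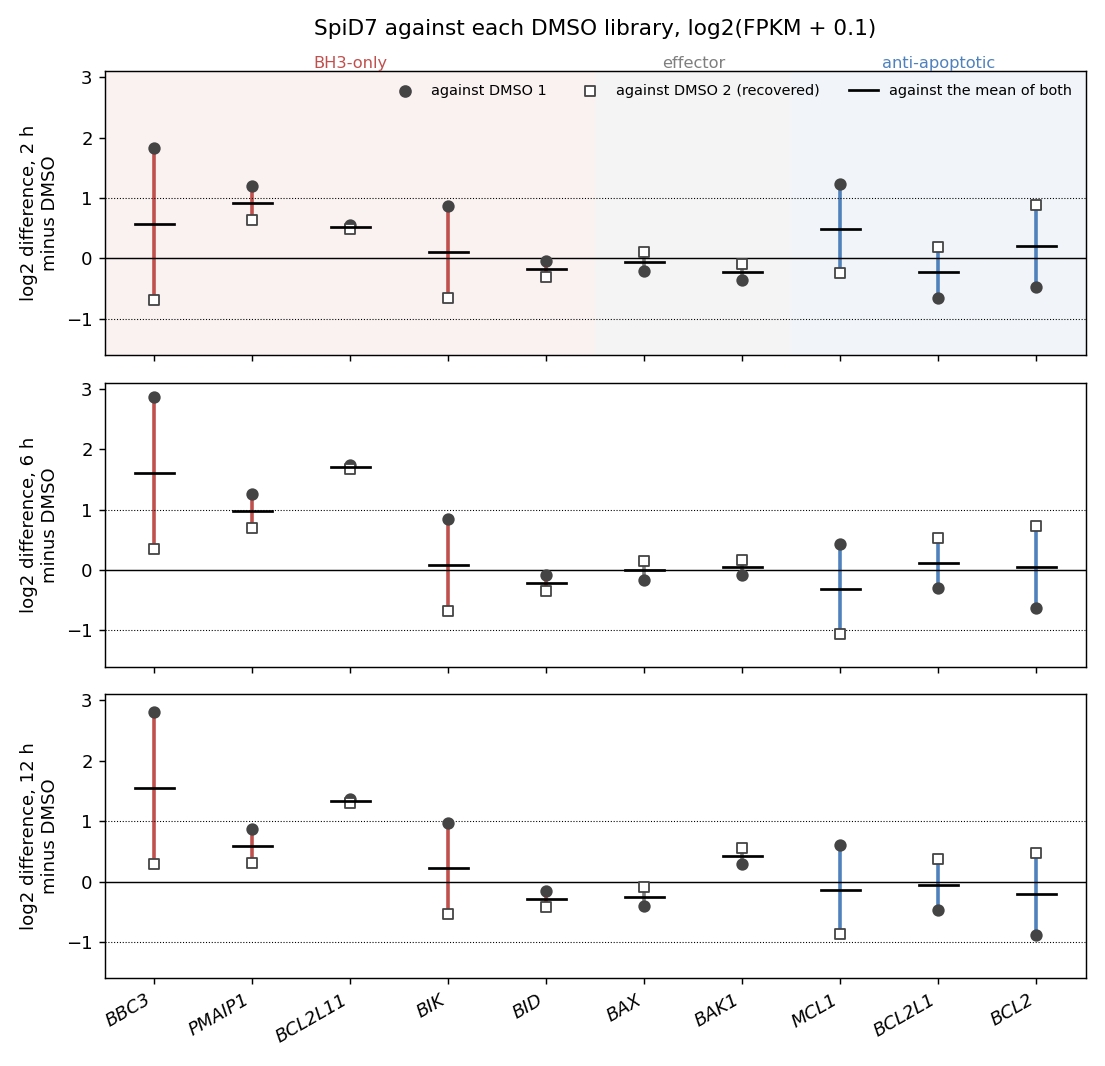
Log2 difference of SpiD7 from DMSO for each member at 2 h (mean of 2 libraries), 6 h and 12 h (1 library each), against DMSO replicate 1 (filled circles), against recovered DMSO replicate 2 (open squares) and against the mean of both (bars), with dotted lines at 2-fold. The ends of a line differ by the distance between the DMSO libraries, which is short for BCL2L11 and long for BBC3, BIK and MCL1.

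The effectors varied 1.33-fold (BAX) and 1.67-fold (BAK1) between their lowest and highest libraries, and both form the pores of the outer membrane. BAX had an FPKM of 108 and 86.7 in DMSO, 102 and 84.9 after 2 h, 96.1 after 6 h and 81.2 after 12 h. Its log2 differences were -0.06 after 2 h (limma, standard error 0.22, adjusted p = 1.0), -0.01 after 6 h and -0.25 after 12 h, and 2 of the SpiD7 libraries lay between the DMSO libraries and 2 below. BAK1 was at 19.9 and 16.6 in DMSO, 16.5 and 14.6 after 2 h, 18.7 after 6 h and 24.4 after 12 h. Both 2 h libraries were just below both DMSO libraries, which held for 1 of the 9 members and for 8.1% of all genes. Above both were 2 members, against 13.7%. At 12 h BAK1 was above both DMSO libraries, with a log2 difference of 0.42. The ratio of BAX to BAK1 within a library was 542 and 521 BAX per 100 BAK1 in DMSO, 616 and 580 after 2 h, 513 after 6 h and 333 after 12 h, which made 12 h the lowest of the 6. BAX lies on chromosome 19, 48954815 to 48961798, and BAK1 on chromosome 6, 33572547 to 33580293, where its exons overlap GGNBP1 on the opposite strand.

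The anti-apoptotic members showed no direction that held against both DMSO libraries. MCL1, a short-lived guardian that NOXA neutralises, was listed at 62.2 and 173 in DMSO, 132 and 162 after 2 h, 83.4 after 6 h and 94.9 after 12 h. All SpiD7 libraries lay between the DMSO libraries. At 6 h MCL1 was 0.42 above DMSO replicate 1 and -1.06 from replicate 2 on the log2 scale, a change of sign with the DMSO library, and at 2 h the pairs gave 1.09 and -0.10. The row of MCL1 held the same values as that of ADAMTSL4-AS1 in every library and shares its locus on chromosome 1 (150549368 to 150579738), so that the value is that of a merged locus. The gene itself spans 150574551 to 150579738.

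BCL2L1, which gives rise to BCL-xL, had an FPKM of 122 and 67.8 in DMSO, 104 and 57.7 after 2 h, 98.4 after 6 h and 87.8 after 12 h. It was lower in both replicates numbered 2, the reverse of BBC3, BIK and MCL1. Within the numbered pairs at 2 h its difference was -0.23 and -0.23, and 3 of 4 SpiD7 libraries lay between the DMSO libraries. In limma without a block the standard error at 2 h was 0.48, larger than the difference, with unadjusted and adjusted p of 0.660 and 1.0. BCL2L1 lies on chromosome 20, 31664452 to 31723989, and its exons overlap ABALON on the opposite strand. BCL2, the founding guardian of the family, was near the limit of what was kept, at 1.02 and 0.34 in DMSO, 0.85 and 0.58 after 2 h, 0.63 after 6 h and 0.51 after 12 h. All 4 SpiD7 libraries lay between the DMSO libraries, and BCL2 (chromosome 18, 63123346 to 63320128) was not tested.

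By class, the median log2 difference of the 5 BH3-only members came to 0.52, 0.98 and 0.59 after 2, 6 and 12 h. For the 2 effectors it was -0.14, 0.02 and 0.08, for the 2 anti-apoptotic members tested 0.13, -0.10 and -0.09, and for all genes -0.01, 0.03 and -0.05. The BH3-only median was 1.26 at 6 h and 0.98 at 12 h against DMSO replicate 1, and 0.34 and 0.28 against replicate 2. For the effectors it was -0.13 and -0.06 against replicate 1, and 0.16 and 0.23 against replicate 2. The BH3-only median was above that of both other classes against either library, though close to that of the effectors at 12 h against replicate 2. The classes hold too few genes for more than a description.

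Shares and ratios within a library do not depend on its scaling. BH3-only genes made up 17.0% and 21.7% of the summed FPKM of the 10 members in DMSO, 20.5% and 24.5% after 2 h, 27.7% after 6 h and 25.4% after 12 h. The 6 h and 12 h shares were above those of both DMSO libraries, while 1 of the 2 h libraries fell between them. Anti-apoptotic genes made up 49.1% and 54.8% in DMSO, 53.1% and 52.0% after 2 h, 44.4% after 6 h and 47.3% after 12 h. Without MCL1, whose row is a merged locus, the BH3-only share was 20.3% and 35.8% in DMSO, 29.1% and 39.7% after 2 h, 34.7% after 6 h and 33.7% after 12 h, and the 6 h and 12 h libraries then lay between the DMSO libraries. The higher BH3-only share at these times therefore held only with the MCL1 row included.

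**Figure D3:**
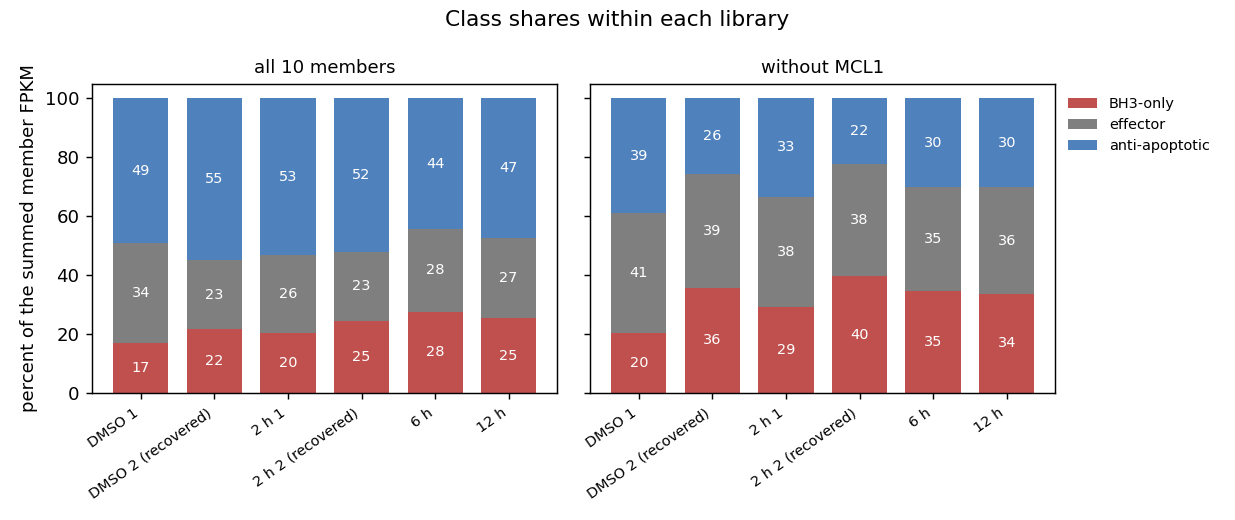
Percent of the summed FPKM of the members taken by BH3-only, effector and anti-apoptotic genes in each library, for all 10 members (left) and without MCL1 (right). With all members the BH3-only share is highest at 6 h (27.7%), and without MCL1 it is highest in recovered 2 h replicate 2 (39.7%).

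Ratios of a BH3-only gene to a guardian it binds depended on the guardian. Per 100 FPKM of BCL2L1, BCL2L11 stood at 5.93 and 11.1 in DMSO, 11.2 and 16.8 after 2 h, 24.6 after 6 h and 21.5 after 12 h. Each SpiD7 library exceeded both DMSO libraries, though 2 h replicate 1 did so by a narrow margin. Per 100 FPKM of MCL1 it stood at 11.6 and 4.36 with DMSO, 8.78 and 5.97 after 2 h, 29.0 after 6 h and 19.9 after 12 h, and here both 2 h libraries lay between the DMSO libraries. PMAIP1 per 100 FPKM of MCL1 stood at 27.3 and 14.5 in DMSO, 31.7 and 22.3 after 2 h, 48.8 after 6 h and 32.7 after 12 h, with 1 of the 2 h libraries between the DMSO libraries. For BBC3 per 100 BCL2L1 the values were 0.70 and 7.93 in DMSO, 2.07 and 8.69 after 2 h, 6.97 after 6 h and 7.49 after 12 h, and 3 of the 4 SpiD7 libraries lay between the DMSO libraries.

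Further genes of the pathway were counted by list. Limma called 0 genes of these lists at 2 h, against 0.0226% of all genes. FBXW7 and DDIT3 alone had an unadjusted p under 0.05 in this test, which 2.84% of all genes had. The model with pooled spread also called 0 genes of the lists, against 0.294% (6 h) and 0.339% (12 h) of all genes. For the 12 h counts below, 6.48% of all genes were more than 2-fold above the DMSO mean and 3.76% more than 2-fold below. Of 13 other BCL2 family genes, 6 had a mean FPKM of at least 1, and 0 of these were more than 2-fold from DMSO at 12 h, between BAD (log2 0.17), a BH3-only protein, and BNIP3L (-0.36), a mitophagy receptor. BNIP3L was 0.40 from DMSO replicate 1 and -1.12 from replicate 2. Below that level, BCL2A1 stood at 0 and 0.11 with DMSO and 0.64 at 12 h, BNIP3 at 0 and 0.12 in DMSO and 0.44 at 12 h, and BCL2L14 at 0.17 and 0.42 in DMSO and 0 at 12 h. The row of BCL2L2 held the values of PABPN1 as well. Of 19 apoptosome, caspase and IAP genes, 0 passed 2-fold upward at 12 h and 1 downward. BIRC3, which encodes cIAP2, had the lowest 12 h value (-2.67), at 0.84 and 27.3 in DMSO, 1.05 and 15.4 after 2 h, 1.26 after 6 h and 0.70 after 12 h, a value that rests on DMSO replicate 2. BIRC2, which encodes cIAP1 and was picked after its values were seen, was below both DMSO libraries in all 4 SpiD7 libraries, at 25.9 and 26.9 in DMSO, 23.9 and 22.6 after 2 h, 22.1 after 6 h and 14.2 after 12 h. This held for 1 of the 19 genes and for 5.04% of all genes, while 2 of the 19 were above both in all 4, against 8.93%.

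The level tested was reached by 12 transcription factors of BH3-only genes. Of these, 3 passed 2-fold above the mean of DMSO at 6 h and 4 at 12 h, against 5.66% and 6.48% of all genes. Both counts include TP73, which reached the level tested only through its 6 h and 12 h values, the same values that are counted. Past 2-fold below were 0 at either time, against 3.1% and 3.76%. The DMSO libraries were more than 2-fold apart in 6 of the 12, against 13.5% of all genes. Of the 4 above at 12 h, only TP73 and DDIT3 passed 2-fold against each DMSO library. ATF3 was -1.64 from replicate 2 at 12 h, and MYC 0.38. DDIT3, which encodes CHOP, was at 13.9 and 46.3 in DMSO, 99.1 and 188 after 2 h, 203 after 6 h and 124 after 12 h, and ATF4 at 153 and 202, 270 and 274, 343 and 326 in the same order. Both lay above DMSO in every SpiD7 library, which held for 2 of the 12 and for 8.93% of all genes. TP73, which encodes the transcription factor p73, was at 1.02 and 0.63 in DMSO and 0.89 and 0.67 at 2 h, and at 6.14 at 6 h and 5.43 at 12 h. Its 2 h values lay between the DMSO libraries, while those of BCL2L11 lay above both. TP73 was not called at any time. FOXO1 had the lowest 12 h value of the list (-0.58), with 0.07 against DMSO replicate 1 and -1.22 against replicate 2. Of 15 genes of growth arrest, DNA damage and death signalling, 2 passed 2-fold upward at 12 h and 0 downward, against 6.48% and 3.76% of all genes. Only CDKN1A of the 2 passed 2-fold against each DMSO library. For these counts against each library, as for the members, the share over all genes was not counted. CDKN1A, the cell cycle inhibitor p21, was at 2.71 and 11.1 in DMSO, 16.7 and 23.1 after 2 h, 37.7 after 6 h and 24.1 after 12 h. It was above both DMSO libraries throughout, as were 3 of the 15 genes and 8.93% of all genes. BTG2 had the lowest 12 h value (-0.60), which changed sign with the DMSO library (2.40 against replicate 1 and -3.60 against replicate 2).

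In a list of 7 genes drawn up for MCL1 and NOXA turnover, 1 passed 2-fold above the mean of DMSO at 6 h and at 12 h. Of all genes, 5.66% and 6.48% did so. The other genes of the list, the MCL1 ligases HUWE1 and FBXW7 among them, did not. The gene past 2-fold was TRIB3, a pseudokinase of the ATF4 and CHOP response. Its FPKM was 12.9 and 11.1 in DMSO, 13.8 and 13.5 after 2 h, 55.5 after 6 h and 82.4 after 12 h, and its adjusted p from limma with pooled spread was 0.213 at 6 h and 0.108 at 12 h. HUWE1, a ubiquitin ligase of MCL1, had the lowest 12 h value (-0.51). FBXW7, another ligase of MCL1 and picked after its values were seen, lay above both DMSO libraries in all 4 SpiD7 libraries, at 7.14 and 5.85 in DMSO, 9.36 and 10.9 after 2 h, 9.57 after 6 h and 11.9 after 12 h. This held for 2 of the 7 genes, FBXW7 and TRIB3, and for 8.93% of all genes.

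**Figure D4:**
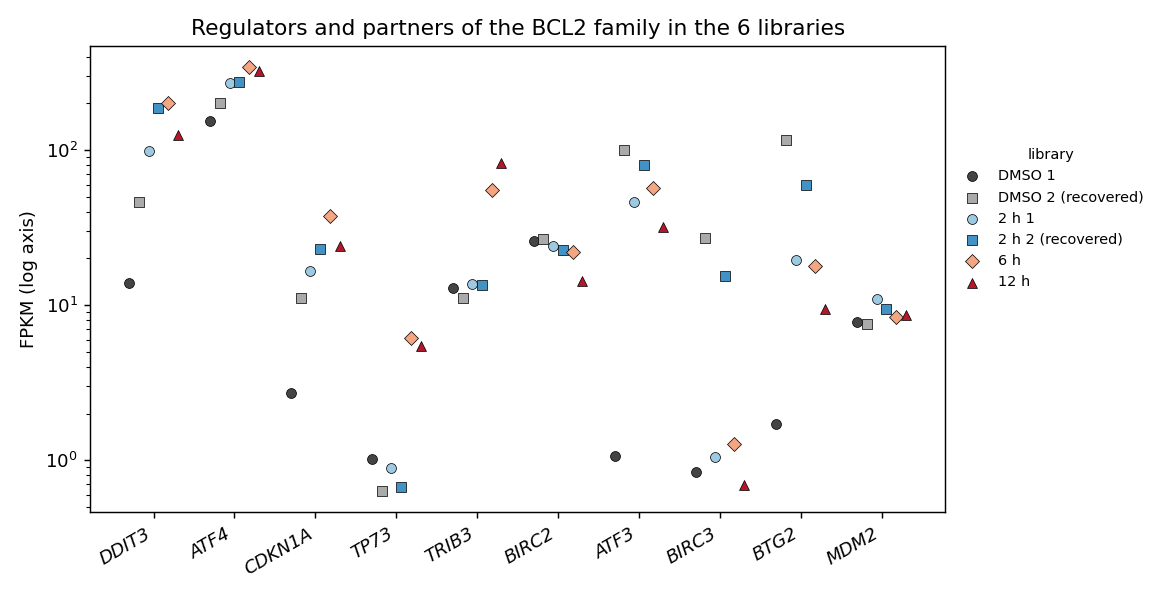
FPKM (log axis) of 10 regulators and partners of the BCL2 family, 1 point per library, with symbols for DMSO, 2 h, 6 h and 12 h as in the legend. The genes are a selection from the lists. DDIT3, ATF4, CDKN1A, TRIB3 and MDM2 have all 4 SpiD7 points above both DMSO points, as do 8.93% of all genes, and ATF3, BIRC3 and BTG2 have DMSO points far apart.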

How the data were processed

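RNA-Seq libraries were prepared with a kit that does not keep strand. By the methods and the submitters' processing notes, the authors used Trim Galore on single reads, TopHat 2.0.8 for alignment, and Cufflinks and Cuffdiff 2.1.1. Loci in the table are human (hg38), although a mouse build stands in the methods. The deposited table gives an FPKM value per side of 4 separately scaled Cuffdiff comparisons, and its fold changes, p-values and q-values were not used. Without counts the depth behind a value is unknown, no counting interval was computed, and a listed 0 may be a failed estimate.

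The columns named for replicate 2 never fell below 0.526 (DMSO) or 0.509 (2 h) of the first library, and were read as the authors' means. Taking away that share of the first library and rescaling the rest by the same share gave replicate 2, with remainders under 0.2% of the mean set to 0. The equal weights this assumes are not described in the sources, and merging of reads before counting was not tested. All libraries were put on 1 scale, that of the first comparison, through DMSO replicate 1 (0.972 at 6 h, 0.994 at 12 h). Of 33085 rows, those of 1 symbol were summed. No column lacked a sample or group (0 columns). Genes whose mean FPKM reached 1 were kept (13287) and log2(FPKM + 0.1) was used, which understates changes of low genes. Fits used limma 3.58.1 in R 4.3.3 with Benjamini-Hochberg adjustment over all genes kept, and tables were handled with pandas 2.3.3 and numpy 2.4.6 (Python 3.11.15). The fits were run on simulated data with independent noise of equal spread in every gene and library. These libraries do not vary in that way, so that the simulation checks the code and not the error rates here. Positions are from GENCODE 29.

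The members, lists, motifs and tests were chosen with earlier results of these data known. Named genes were the members, the highest and lowest of each list at 12 h, list genes past 2-fold against both DMSO libraries at 12 h, DDIT3, ATF4 and CDKN1A, and the 3 genes most like the member with the largest absolute difference at 12 h. Among the cell type markers the rule named CD14 (log2 1.04 at 12 h) and PECAM1 (-1.53). Some other genes that it names are not reported here. Alternatives covered pseudocounts, filtering, scaling, repeated symbols, a replicate block, an intensity trend, a fit of all 6 libraries, the deposited means, leaving out a replicate, and shares without MCL1.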

Additional observations from a re-analysis of the deposited data

Results flagged for a closer look

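BAK1 was below both DMSO libraries in both 2 h libraries (log2 -0.23 against the mean of both) and above both in the single 12 h library (log2 0.42), so that the time points lay on opposite sides of the vehicle. The difference between the time points was not tested.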

How the results depend on the processing

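With 2 libraries a group at most, and without counts, neither depth nor the spread at 6 h and 12 h could be measured, and the number of genes called at 2 h (3) was 0 with the replicate block, 5 with an intensity trend, 1 and 6 with pseudocounts of 1 and 0.01, 0 without a filter, and 1 with either median-ratio or upper-quartile scaling. It ranged from 0 to 21 with 1 library left out. Members called stayed at 0 in all of these fits. The labels give DMSO and 2 h the same replicate numbers but nothing else that pairs them, and the deviations of same-numbered libraries had a correlation over genes of 0.369. With this replicate block 2 of the 9 members had an unadjusted p under 0.05 in limma, against 14.1% of all genes, BCL2L11 (0.0379, adjusted 0.347) and BCL2L1 (0.0490, adjusted 0.352), and PMAIP1 had 0.0558 (adjusted 0.360).

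Genes more than 2-fold from DMSO numbered 1164 at 6 h and 1360 at 12 h. They were 771 and 869 with a pseudocount of 1, and 2948 and 3395 without a filter. With a DMSO library left out they were 966 to 2063 at 6 h and 1627 to 1937 at 12 h. Members more than 2-fold from DMSO then numbered 2 to 3 at 6 h and 1 to 2 at 12 h. Without DMSO replicate 1 these were BCL2L11 and MCL1 (lower) at 6 h and BCL2L11 at 12 h. Genes called with pooled spread were 96 at 6 h and 263 at 12 h without a filter, and 22 to 47 and 26 to 51 with a library left out. The BH3-only share without MCL1 averaged 28.1% in DMSO and 34.4% at 2 h, and was 34.7% at 6 h and 33.7% at 12 h, against 19.3%, 22.5%, 27.7% and 25.4% with it.

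At 2 h the sign of 5 members turned with 1 library left out, with ranges of -0.69 to 1.83 for BBC3, -0.65 to 0.87 for BIK, -0.22 to 0.10 for BAX, -0.24 to 1.23 for MCL1 and -0.65 to 0.19 for BCL2L1. These turned without DMSO replicate 1, and for BBC3 (-0.02), BIK (-0.48), BAX (0.07) and BCL2L1 (0.19) also without 2 h replicate 2. PMAIP1 (0.63 to 1.19), BCL2L11 (0.39 to 0.65), BID (-0.35 to -0.01) and BAK1 (-0.36 to -0.10) kept their sign. From the deposited means alone the 2 h value of BIK was -0.01. Of 198 values of single members under the other alternatives, 195 moved by less than the replicate spread or kept sign and call. The other 3 were BCL2L11 at 6 h (1.59) and 12 h (1.24) with a pseudocount of 1 and at 12 h (1.40) with upper-quartile scaling. The spread was that of the same gene between the DMSO libraries, which was wide for BBC3 and narrow for BCL2L11. BBC3 at 6 h was 1.60, and its 1.19 with a pseudocount of 1 still counted as within the spread. The count therefore does not compare members in their dependence on processing. The causes were not tested.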
